A study of Mus musculus with 2 samples.

Results

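In erythroblasts of adult mice, 545 protein-coding genes had open chromatin at a start site inside the gene record and none detected at the record's outermost 5′ end. They were found by comparing 2 kinds of peak list with the GENCODE M21 annotation of GRCm38 (mm10). A gene counted as open when each replicate's own thresholded list, kept by the authors for reproducibility (IDR), had an interval within 1 kb of some annotated start of that gene. Its outer end counted as closed when neither replicate's longer pseudoreplicated list had an interval within 1 kb of the outermost 5′ end. Of 21755 protein-coding genes on chromosomes 1 to 19 and X, 9080 (41.7%) were open at some start, and the 545 genes were 2.51% of all genes and 6.00% of the open ones. Of the 6000 open genes with a start over 2 kb inside, 527 (8.78%) were among the 545. With the annotation's basic transcripts alone, the rule gave 234 genes, 2.65% of the open ones, and kept 229 of the 545. Their open sites merged into 700 regions. Of these, 668 held an interval of replicate 1, whose list had 17766 intervals, and 670 held one of replicate 2, whose list had 18826. The genes were selected on these peak lists, so openness at the internal start and closure at the outer end describe the selection and were not tested.

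The assay was ATAC-seq, in which a transposase cuts exposed DNA, so that read pile-ups mark accessible chromatin. Each library used 50000 primary erythroblasts, the mice being C57BL/6J males, adult at 5 to 6 weeks, with no treatment, altered allele or second condition named. Each library came from its own biosample under a shared donor identifier, and the labels do not say whether these were separate animals, so the spread between the 2 replicates may be partly technical. The files hold peak intervals and no read counts, so depth is unknown. In a bulk sample, a start that is open in fewer cells cannot be told apart from one that is open less often in every cell.

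Many mammalian genes have more than one promoter, and transcripts from an internal promoter can share the protein of the longer form, change its first exon, or lack its amino-terminal part. Erythroblasts are the nucleated precursors of red cells. Several genes of their membrane skeleton and iron handling are known to use an erythroid first exon that lies inside a longer gene record, and factors of the GATA, TAL1 and KLF families bind many of their regulatory sites. CpG-rich promoters are typical of broadly used genes and are bound by such factors as ETS proteins, NRF1 and SP1, while tissue-restricted promoters are often poor in CpG.

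The 120 bases before the open internal start, and for some genes before the closed outer end, are shown for 7 genes. They were picked as examples of base composition and of the words counted below. Sequences are from GRCm38, written 5′ to 3′ on the gene's strand, whose sign stands in brackets. Capitals mark matches, on either strand, to the GATA word (A or T, then GATA, then A or G), the GATA-TAL1 composite (CTG, then GATAA after a gap of 8 or 9 bases), the KLF word CCNCNCCC, where N is any base, the ETS word CCGGAAG, the NRF1 word (GCGC on either side of A and any base) and the NFY word CCAAT. A match is a description of letters and not a binding site. Genes not shown can read the other way. In Cbfa2t3 and Pde4d a composite stood before the closed outer end and none before the open start. Add3 had 7 KLF matches before its outer end and 2 before its open start.

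Gata1 encodes the master transcription factor of red cell development, and its open start had 3 KLF matches, against none of the marked words before its outer end. Add2, which encodes beta-adducin of the membrane skeleton, had 2 GATA words, one of them inside a composite, and Steap3, the endosomal ferrireductase of erythroid precursors, had a GATA word beside a KLF word.
Gata1 open start, chrX:7967911-7968030 (-): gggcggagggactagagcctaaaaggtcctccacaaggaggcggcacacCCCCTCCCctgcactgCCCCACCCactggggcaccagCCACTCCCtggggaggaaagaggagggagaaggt
Gata1 outer end, chrX:7978072-7978191 (-): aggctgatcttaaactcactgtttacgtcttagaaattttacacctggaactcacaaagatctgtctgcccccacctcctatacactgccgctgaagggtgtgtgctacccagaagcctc
Add2 open start, chr6:86077937-86078056 (+): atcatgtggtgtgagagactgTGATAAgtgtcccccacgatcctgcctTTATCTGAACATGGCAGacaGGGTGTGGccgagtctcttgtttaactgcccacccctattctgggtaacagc
Steap3 open start, chr1:120271083-120271202 (-): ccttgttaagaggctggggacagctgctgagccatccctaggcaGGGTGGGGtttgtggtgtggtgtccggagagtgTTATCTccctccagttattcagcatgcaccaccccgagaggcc

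Slc11a2, the divalent metal transporter DMT1 that moves iron out of endosomes, is shown with both ends because its open start was CpG-rich and its outer end was almost free of CpG. Ank1, which encodes the ankyrin of the red cell membrane, is shown with both ends because it had the opposite arrangement.
Slc11a2 open start, chr15:100423056-100423175 (-): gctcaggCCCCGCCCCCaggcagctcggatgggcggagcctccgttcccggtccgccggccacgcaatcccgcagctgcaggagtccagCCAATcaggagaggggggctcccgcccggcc
Slc11a2 outer end, chr15:100425073-100425192 (-): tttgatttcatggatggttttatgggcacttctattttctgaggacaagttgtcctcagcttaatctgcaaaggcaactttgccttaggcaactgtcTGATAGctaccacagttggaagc
Ank1 open start, chr8:23034979-23035098 (+): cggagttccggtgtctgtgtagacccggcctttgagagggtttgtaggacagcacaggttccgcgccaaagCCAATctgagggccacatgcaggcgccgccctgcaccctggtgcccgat
Ank1 outer end, chr8:22974724-22974843 (+): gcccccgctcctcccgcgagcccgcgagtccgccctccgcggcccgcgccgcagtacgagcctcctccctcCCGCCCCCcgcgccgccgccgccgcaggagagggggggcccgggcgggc

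Actr1b, a dynactin subunit, and Tmed9, a cargo receptor of the early secretory pathway, stood among the 10 genes with the highest enrichment. Their open starts had ETS, NFY and KLF words in Actr1b and an NRF1 word in Tmed9.
Actr1b open start, chr1:36710009-36710128 (-): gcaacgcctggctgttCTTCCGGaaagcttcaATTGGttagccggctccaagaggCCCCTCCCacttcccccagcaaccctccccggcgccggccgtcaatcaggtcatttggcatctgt
Tmed9 open start, chr13:55593038-55593157 (+): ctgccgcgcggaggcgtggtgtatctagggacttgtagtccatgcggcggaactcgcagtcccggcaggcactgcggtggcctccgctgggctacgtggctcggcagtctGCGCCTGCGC

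The open start lay a median of 10.03 kb inside the gene, with an interquartile range of 4.24 to 31.2 kb and extremes of 0.187 and 1236 kb. In 5 genes the distance was up to 1 kb, in 40 it was 1 to 2 kb, in 227 it was 2 to 10 kb, in 182 it was 10 to 50 kb and in 91 it was over 50 kb. The distance plot shows this spread, with a single broad peak and a long tail. Most genes had 1 region (419 genes), while 98 had 2, 26 had 3 and 2 had 4. Between the outer end and the open start, 77 genes (14.1%) had a further site, open in both replicates and over 1 kb from either, and Gse1 had the most, with 15. Genes with the open start over 10 kb inside held 68 of these 77.

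**Figure D1:**
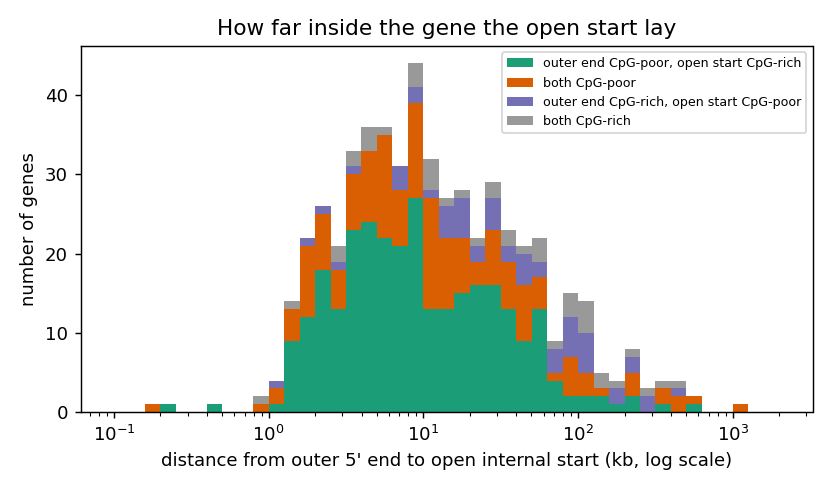
Number of genes (vertical axis) by distance from the outer 5′ end to the open internal start (horizontal axis, kb, log scale), coloured by the CpG content of both ends. The median was 10.03 kb, and the 54 genes with a CpG-rich outer end and a CpG-poor open start (purple) sit to the right, with a median of 38.4 kb.

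The other lists come from the same 2 libraries, so they give no independent check of closure. In each replicate the thresholded list was also the shorter kind, so low counts in such lists were likely from the start. In these other lists the outer end was closed for most, but not all, of the 545 genes. An interval within 1 kb of the outer end was present for 3 genes in the pooled thresholded list, 28 in the pooled pseudoreplicated list, 33 in the replicated list and 5 in the conservative list, and 40 genes (7.34%, Wilson 95% interval 5.44 to 9.84, which covers counting error only) had one in at least 1 of these 4 lists. In the ranked lists the number was 1 gene for each replicate and 41 (7.52%) for the pooled ones. The 40 include Ldb1, Cbfa2t3, Slc11a2 and Rassf1. The nearest pseudoreplicated interval lay a median of 5.03 kb from the outer end, and within 2 kb in 106 genes (19.4%). Just inside the selection stood Hagh at 1010 bp, Psen2 at 1011 bp and Atp6v1g2 at 1018 bp, and just outside it Clcn4 at 997 bp, Snrpa1 at 982 bp and Maoa at 979 bp. In 3 genes every open start was itself within 1 kb of the outer end, so the word internal fits them poorly.

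Most regions were in both replicates, which the selection favours, since it needs an interval near some start of the gene in each. A region in 1 replicate alone had no overlapping interval of the other within 1 kb of a start, and farther intervals were not searched. Of the 700 regions, 638 (91.1%) were in both replicates, 30 in replicate 1 alone and 32 in replicate 2 alone, and 542 of 545 genes had a region found in both. The remaining genes were Rbpj, whose strongest region was in replicate 1 alone, and Plekhg5 and Vgll4, whose strongest regions were in replicate 2 alone. Enrichment here is the authors' fold of signal over background at an interval's highest summit. The median over regions was 7.94 for the 668 of replicate 1 and 8.19 for the 670 of replicate 2, which average 8.06 ± 0.178 (SD, n = 2). The strongest region of a gene means here the one with the highest mean enrichment among those found in both replicates, or among all its regions where none was in both. It had a median of 8.75 ± 0.0938, against 9.92 ± 0.0999 for the outer-end interval of 5362 genes that were open there in both replicates and also had a start over 2 kb inside (SD, n = 2 each). The internal regions were also narrower, at a median of 741 ± 4.24 bp against 914 ± 9.55 bp. Both gaps exceeded the spread between replicates, and no test over genes was made because the lists that give these values chose the genes. When each replicate's whole list was cut into 5 equal bins by enrichment, the lowest bin held 18.7% and the highest 20.96% of the internal regions of replicate 1, and 17.5% and 23.3% of those of replicate 2.

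**Figure D2:**
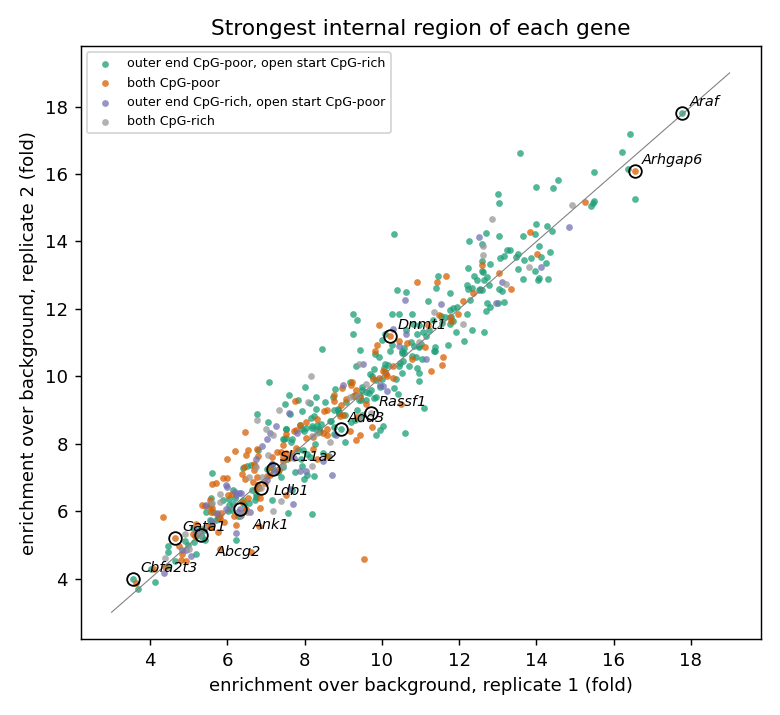
Enrichment over background (fold) of each gene's strongest internal region in replicate 1 (horizontal axis) and replicate 2 (vertical axis), for the 542 genes with a value in both, with the line of equality in grey and named genes circled. Most points lie near the line, with Cbfa2t3 at 3.57 and 3.99 near its lower end and Araf at 17.8 and 17.8 at its upper end, and the point far below the line is Msmb, at 9.54 and 4.59.

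For distance, summit position, sequence and CpG content, the open start means the one nearest the summit of the gene's strongest region. Closeness to the summit is thus partly built in. Counts of principal transcripts, support levels and start codons instead take all open starts of a gene together, over all its regions. The outer end of a comparison gene is fixed by the annotation, so the groups below are not measured alike. With the start nearest the summit chosen, summits sat just before the internal start. The median position was 34 bp upstream of the open start (−34 bp), and 410 of 545 summits (75.2%, 71.4 to 78.7) lay within 250 bp of it, against 4195 of 5362 (78.2%, 77.1 to 79.3) at the outer ends of the comparison genes. Upstream summits made up 71.6% at internal starts and 65.8% at those outer ends. Relative to the gene's own transcripts, 356 summits were in an intron, 184 in an exon and 5 outside the gene record. The other genes, with the summit farther off, include Cd163 at 1196 bp. A neighbour's start was also near in part of the genes: for 62 genes (11.4%) the strongest region lay within 1 kb of a start of another protein-coding gene, and for 121 (22.2%) within 1 kb of a start of any other gene. Such a region cannot be assigned to one of the genes from these files.

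**Figure D3:**
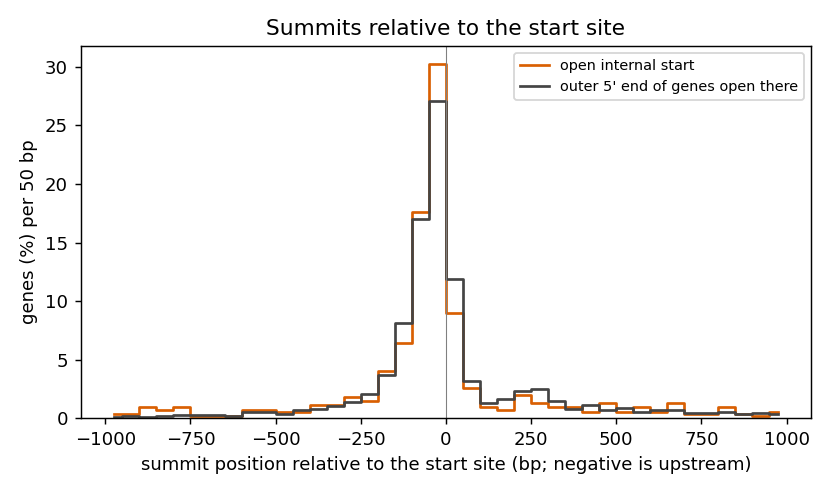
Share of genes (%, per 50 bp) by position of the summit relative to the start site (bp, negative is upstream), for the 545 open internal starts (orange) and the outer ends of 5362 genes open there (dark grey). Both curves peak just upstream of the start, with medians of −34 and −29 bp. Each internal start is the gene's open start nearest the summit, while each outer end is fixed.

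The annotation at the outer ends was weaker than at the open starts. A transcript that the annotation calls principal started within 1 kb of the outer end in 232 of 545 genes (42.6%, 38.5 to 46.8), against 4987 of 5362 comparison genes (93.0%, 92.3 to 93.7). At the open starts of the 545 genes, 366 (67.2%) had a principal transcript. Transcripts of support level 1, the best supported class, began at the exact outermost base in 38.9% of the genes, against 72.5% of comparison genes. They began at some open start in 80.6%. A single base is thus set against all open starts of a gene, which raises the share at the open starts. The outer end carried a median of 1 transcript and the open starts a median of 3. The principal transcript began at an open start and not at the outer end in 281 genes (51.6%), at the outer end and not at an open start in 147 (27.0%), at both in 85 (15.6%) and at neither in 32 (5.87%).

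Start codons were compared between transcripts beginning within 1 kb of the outer end and those beginning at any open start. Only protein-coding transcripts with a complete coding start were counted. Any codon in common made a gene shared, so such a gene can also have transcripts with different ones. The same annotated start codon served transcripts from both starts in 196 genes (36.0%), as in Gata1, Add2, Slc11a2 and Abcg2. In 148 genes (27.2%) the start codons differed, as in Ank1, Steap3, Tpm3 and Cbfa2t3. A start codon was counted for transcripts from open starts alone in 94 genes (17.2%), as in Araf, and from the outer end alone in 104 (19.1%), as in Mmp9 and Vwf. Neither end had one in 3 genes. The files measure chromatin and not RNA, so none of these transcripts was observed.

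Base composition differed between the 2 ends of the same gene. CpG content was measured as the observed over expected CpG ratio in 300 bases, 250 before and 50 after a start, with 0.6 or more called CpG-rich. The median ratio was 0.680 at the open internal start and 0.278 at the closed outer end, and 416 of 545 genes (76.3%, 72.6 to 79.7) had the higher ratio at the open start. CpG-rich windows made up 338 open starts (62.0%, 57.9 to 66.0) and 97 outer ends (17.8%, 14.8 to 21.2) of the 545 genes. Among comparison genes 80.6% of outer ends were CpG-rich, and among all protein-coding genes 44.7%. GC content had medians of 60% at the open starts and 51% at the outer ends, against 60.7% at the outer ends of comparison genes.

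**Figure D4:**
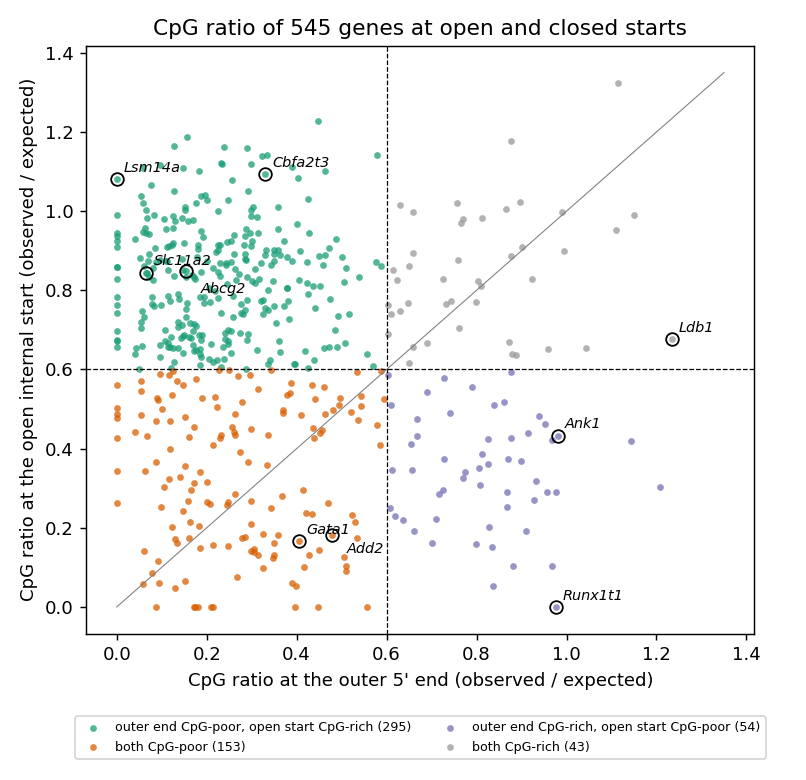
CpG ratio (observed over expected) at the open internal start (vertical axis) against the closed outer 5′ end (horizontal axis) for 545 genes, with dashed lines at 0.6, the line of equality in grey and named genes circled. The upper left group, CpG-poor outside and CpG-rich inside, holds 295 genes, and the lower right group, with the opposite arrangement, holds 54.

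The 2 ratios divide the genes into 4 classes. The largest had a CpG-poor outer end and a CpG-rich open start, with 295 genes (54.1%), among them Abcg2, Slc11a2 and Cbfa2t3. In this class a principal transcript began at some open start in 86.1% (81.7 to 89.6). The summit lay within 250 bp of the start nearest it in 86.4%, and the median distance was 7.99 kb. Its median enrichment, 9.69 ± 0.0182 (SD, n = 2), was the highest of the 4. The second class, CpG-poor at both ends, had 153 genes (28.1%), among them Gata1, Add2 and Steap3. A principal transcript began at its open starts in 47.7% (39.95 to 55.6), its summits were within 250 bp in 57.5%, and its median enrichment was 7.65 ± 0.173.

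The third class ran the other way, with a CpG-rich outer end and a CpG-poor open start in 54 genes (9.91%), among them Ank1. Here a principal transcript began at some open start in 22.2% (13.2 to 34.9) and at the outer end in 70.4% (57.2 to 80.9). In 81.5% of these genes the open start lay over 10 kb inside. Its median enrichment was 7.26 ± 0.0524. In the last class both ends were CpG-rich, in 43 genes (7.89%), among them Ldb1, Gnas and Rassf1. Start codons differed between the ends in 46.5% of these (32.5 to 61.1), and the median enrichment was 7.84 ± 0.583. This median and that of Ank1's class differed by no more than the replicate spread here.

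For GATA, composite and CTCF words, the internal regions lay between open outer ends and open sites away from any start. Either strand was searched, up to 75 bp from the summit, and shares are means ± SD over 2 replicates. The replicates share most of their regions, so this SD is not the counting error of a share. Internal shares cover every region, 668 and 670 by replicate, including the weaker ones of genes with several. Comparison shares cover 4902 outer-end sites in each replicate, fewer than the 5362 comparison genes, so the units are unlike. A GATA word was present in 19.8 ± 0.148% of the internal regions, against 8.43 ± 0.231% of comparison outer ends and 45.4 ± 0.734% of distal open sites. Among all 21755 protein-coding promoters, in windows of the same length on the outer end, the share was 11.7%. In such windows on the closed outer ends of the 545 genes themselves, it was 12.8% (10.3 to 15.9). The GATA-TAL1 composite, which contains a GATA word, showed the same order with 3.74 ± 0.431%, 0.775 ± 0.0289% and 11.2 ± 0.323%, beside 0.492% of all promoters. CTCF matches, searched as CCA, AG and GGC with gaps of 2 bases, were in 8.15 ± 0.334% of the internal regions, 2.62 ± 0.216% of comparison outer ends, 18.3 ± 0.889% of distal sites and 1.27% of all promoters.

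Words typical of broadly used promoters ran in the opposite order. The ETS word was in 10.6 ± 0.234% of internal regions, 18.1 ± 0.144% of comparison outer ends, 1.43 ± 0.0504% of distal sites and 8.43% of all promoters. NRF1 matches had shares of 4.41 ± 0.0964%, 9.54 ± 0.0433%, 0.549 ± 0.00566% and 4.59% in the same order of groups. The KLF word had similar shares in the promoter groups, with 55.8 ± 1.15% of internal regions and 57.1 ± 0.0433% of comparison outer ends, but was in 26.0 ± 0.00353% of distal sites and 40.5% of all promoters. It overlaps the SP word GGGCGG in many windows, which was in 49.1 ± 0.844%, 61.0 ± 0.0144%, 11.03 ± 0.0798% and 35.7%.

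The GATA share followed the CpG class of the open start. Counted over each gene's strongest region, it was 31.1 ± 0.900% where the open start was CpG-poor and 10.2 ± 0.650% where it was CpG-rich (SD, n = 2). The CpG-rich share was no higher than the 12.8% at the closed outer ends of the 545 genes. The composite followed, with 8.01 ± 1.09% and 0.741 ± 0.208%, and so did CTCF, with 16.3 ± 0.232% and 3.56 ± 0.412%. The ETS word was in 3.40 ± 0.0233% of CpG-poor and 16.4 ± 0.175% of CpG-rich open starts. Comparison genes with a CpG-poor outer end that was open had a GATA share of 13.3 ± 0.136%, below the CpG-poor internal starts by more than the replicate spread. Genes whose principal transcript began only at the outer end had a GATA word at the open start in 26.2 ± 0.481%, against 12.2 ± 0.981% where it began only at open starts. GC content moves with the CpG class, and its part in the chance occurrence of these words was not tested.

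**Figure D5:**
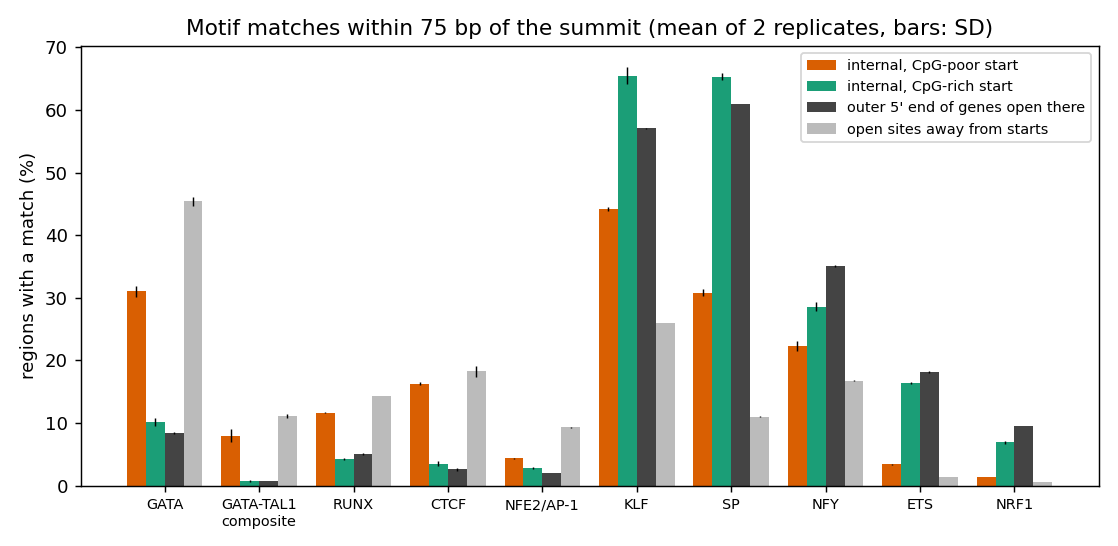
Share of regions (%) with a match within 75 bp of the summit, as the mean of 2 replicates with SD bars, for internal starts that are CpG-poor (orange) and CpG-rich (green), outer ends of genes open there (dark grey) and open sites away from starts (light grey). GATA, composite, RUNX and CTCF bars are higher at CpG-poor than at CpG-rich internal starts, and KLF, SP, ETS and NRF1 bars are lower.

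Among 4 lists of erythroid genes, 115 of 136 genes were open at some start and 13 of these (11.3%) were open only inside, beside 6.00% of all open genes. The share was 8.78% of all open genes with a start over 2 kb inside. The 13 fell to 7 with the 2 kb window, where 5.18% of all open genes were open only inside, and to 2 among intervals at or above the median enrichment of their list, where 4.75% were. By list these were 3 of 28 open transcription regulators, 4 of 29 genes of heme and iron, 6 of 31 genes of membrane and cytoskeleton and none of 27 genes of receptors, signalling and maturation. The lists were chosen with results of these data known, so the counts describe them and support no claim about erythroid genes.

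Of the regulators, Gata1 had its open region at chrX:7967823-7968283, 10.2 kb inside its record, with enrichments of 4.63 and 5.19 in replicates 1 and 2. A principal transcript began at an open start, the summit lay 77 bp upstream of the nearest one, and both windows were CpG-poor at 0.167 inside and 0.405 outside. Ldb1, the adaptor that joins GATA1 and TAL1 complexes, had 6.86 and 6.69 at a start 5.59 kb inside, with CpG ratios of 0.677 inside and 1.23 outside. Cbfa2t3, the corepressor ETO2 of the same complexes, had low enrichments of 3.57 and 3.99 at a start 20.9 kb inside. Ldb1 and Cbfa2t3 were among the genes with an interval at the outer end in a pooled list.

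In the iron and heme group the internal starts were mostly close to the outer end. Slc11a2 had enrichments of 7.17 and 7.26 in replicates 1 and 2 at a start 2.02 kb inside, with CpG ratios of 0.845 at this start and 0.0659 at the outer end. Steap3 had 5.60 and 6.81 at a start 1.62 kb inside, CpG-poor at 0.174, with a GATA word near the summit. Its other region, chr1:120264782-120265799, had 9.07 in replicate 1. No thresholded interval of replicate 2 within 1 kb of a Steap3 start overlapped it, and intervals farther out were not searched. Fth1, the heavy chain of the iron store ferritin, had 6.11 and 6.02 at 2.05 kb, and its window inside had a ratio of 0.827. The exception in distance was Abcg2, an efflux transporter that carries porphyrins, whose open start lay 56.1 kb inside with 5.31 in both replicates. Its region, chr6:58640086-58640982, had a GATA word, a composite and an SP word within 75 bp of the summit.

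In the membrane and cytoskeleton group the internal starts ran from 2.31 kb inside in Add3 to 60.3 kb inside in Ank1. Ank1 was open at chr8:23034920-23035455, 60.3 kb inside, with enrichments of 6.32 and 6.07, a CpG ratio of 0.433 at the open start and 0.981 at the outer end, and a different start codon. Add2 was open at chr6:86077593-86078379, 49.4 kb inside, with 5.75 and 5.39 and a shared start codon. Add3, the gamma-adducin gene, had 8.93 and 8.43 at 2.31 kb, and Tpm3, a tropomyosin of short actin filaments, had 8.77 and 9.43 at 6.89 kb. Dmtn, which encodes dematin that bundles actin, had 3 regions. The stronger of those found in both replicates had 4.09 and 4.28, and a region of replicate 2 alone had 4.45. The summit of the 4.09 and 4.28 region lay 543 bp past the start and no KLF or GATA word stood near it. Slc14a1, the urea transporter of the red cell membrane, had 6.46 and 6.02 at 18.8 kb inside, with a GATA word and 2 regions.

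A list of 41 genes known for alternative promoters had 23 open genes. Of these, 7 (30.4%) were open only inside, beside 6.00% of all open genes and 8.78% of those with a start over 2 kb inside. Besides Gata1, Ank1 and Abcg2 these were Dnmt1, Gnas, Lck and Rassf1. Dnmt1, the maintenance DNA methyltransferase with a known oocyte promoter, had 10.2 and 11.2 at a start 6.91 kb inside. Gnas, an imprinted locus whose records span several first exons, had 5.80 and 6.51 at 43.2 kb with different start codons. Rassf1, whose long and short proteins start at separate promoters, had 9.73 and 8.90 at 3.03 kb, with CpG ratios of 0.823 inside and 0.804 outside. Membership of such a list follows from having distant starts, which the selection also needs.

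Markers of other blood and tissue cell types gave 5 genes of 14 open ones (35.7%, beside 6.00% of all open genes) among 61 listed, namely Lck, Mmp9, Cd163, Vwf and Casq2. For all open genes with a start over 2 kb inside, the share was 8.78%. In Mmp9, Cd163, Vwf and Casq2 no start codon was counted for transcripts from any open start. Their summits lay between 542 and 1196 bp from the nearest open start, in either direction. Their enrichments ran from 5.20 and 5.61 in Mmp9, a secreted gelatinase, to 7.76 and 9.25 in Cd163, a hemoglobin scavenger receptor of macrophages. The erythroid markers were open at some start in 9 of 10, beside 41.7% of all protein-coding genes. Open genes were 5 of 8 in the megakaryocyte and platelet list, 3 of 6 in muscle and 2 of 9 in granulocyte and monocyte. They were 2 of 8 in T and NK cell and 1 of 7 in each of B cell and macrophage. No gene of the stem cell (6 genes), hepatocyte (5) or neuron (5) lists was open at any start. In the cell cycle list 2 of 24 open genes (8.33%, near the 6.00% of all open genes) were open only inside, Ccnd3, which had 8 open sites between the outer end and a start 88.4 kb inside, and Cdk6, with enrichments of 8.20 and 8.23 at 2.83 kb.

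Among the genes with the highest mean enrichment, 9 are described, from Araf to Ankrd37. Araf, a RAF kinase, had 17.8 in both replicates at chrX:20848255-20848885, 50.7 kb inside, and was followed by Tent5d with 16.4 and 17.2, Tmed9 with 16.2 and 16.7, Arhgap6 with 16.6 and 16.1 and Snrpc with 16.4 and 16.2. Pias1, Actr1b, Coq8a and Ankrd37 had means of 15.9, 15.8, 15.3 and 15.2. Of these 9 genes, 8 had a CpG-poor outer end and a CpG-rich open start. The other was Arhgap6, a GTPase-activating protein, whose open start 241.5 kb inside had a ratio of 0.409. The strongest regions of Tent5d, Actr1b and Ankrd37 also lay at a start of another gene, which was Lrp2bp for Ankrd37.

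The deepest internal starts belonged to Pde4d at 1236 kb, Tenm4 at 606.7 kb, Frmd4a at 542.1 kb, Pde4b at 482.6 kb and Rasgef1b at 476.1 kb. Pde4d and Pde4b, phosphodiesterases that break down cyclic AMP, had enrichments of 5.10 and 5.31, and of 5.60 and 6.11, in replicates 1 and 2. Rasgef1b, a guanine nucleotide exchange factor, had a mean of 8.16 ± 1.19 (SD, n = 2) and was CpG-rich at both ends. In Pde4d, Tenm4, Frmd4a and Pde4b no principal transcript began at any open start. Their enrichments were in the lower part of the range, from 3.68 in Frmd4a to 6.11 in Pde4b.

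Genes with the most regions were Atf7ip and Slc29a1 with 4 each and Adgrg1, Asap1 and Atp5d, first by name among those with 3. Slc29a1, the nucleoside transporter ENT1 that is abundant in red cells, had its strongest region at 5.33 and 6.18, with a GATA word and a composite, at a CpG-poor start 5.97 kb inside. Atf7ip, a chromatin regulator, had 9.04 and 8.84 at a CpG-rich start 12.6 kb inside, and Atp5d, a subunit of mitochondrial ATP synthase, had 5.57 and 5.62 at 3.68 kb. The strongest regions of Adgrg1 and Asap1 had their summits 961 and 954 bp past the start.

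At the extremes of the CpG difference between the ends stood genes with quite different annotation. Lsm14a, Fam118a, Ppp2r3d, Wipi2 and Prpf6 rank highest, with ratios of 1.08 to 1.19 at the open start and 0 to 0.157 at the outer end. A principal transcript began at some open start in all but Ppp2r3d. Prpf6, a splicing factor, had enrichments of 12.7 and 12.2, and Wipi2, an autophagy protein, had 10.3 and 11.8. At the other extreme were Runx1t1, Nt5c2, Podxl2, Ldlrad4 and Zfp395, with ratios of 0 to 0.304 at the open start and 0.838 to 1.21 at the outer end. Runx1t1, a corepressor related to Cbfa2t3, had 10.6 and 11.3 at a site with a GATA word, 1079 bp past a start 41.3 kb inside.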

How the data were processed

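ATAC-seq peak lists of 2 erythroblast replicates were analysed as deposited by the authors. Each line gives an interval, the authors' fold enrichment of signal over background (a ratio), the deposited −log10 p and q values and a summit. The files name the build mm10, and all intervals used lay within the chromosomes of GRCm38.p6. For the aligner and peak caller, names and settings were not given in the sources used here. As the files hold no read counts, depth is unknown and only the number of intervals limits precision.

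Lines that share an interval were merged and the strongest summit was kept. Starts, principal and basic tags, support levels and start codons came from GENCODE M21. Wilson intervals (95%) cover counting error only. Comparison genes were open at the outer end in both replicates, with a start over 2 kb inside. No test over genes was made, since the lists chose the genes. The selection and the motif counting were tested on simulated data. Computations used Python 3.11.15, numpy 2.4.6, pandas 2.3.3 and scipy 1.17.1. Of the symbols used for matching lists, 27 belong to more than 1 gene record.

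The genes and gene lists were chosen with earlier results of these data known. Named genes are the members of the fixed lists, the 10 with the highest mean enrichment, the 5 deepest, the 5 with most regions, 3 on either side of the 1 kb limit and 5 at each extreme of the CpG difference. A gene that this rule names is not reported here. Genes mentioned for a missing replicate value, for Gse1's count of sites between or for Msmb's replicate difference were chosen after their values were seen. Alternatives varied the window, the lists, the transcripts, the summit rule and the replicates.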

Additional observations from a re-analysis of the deposited data

How the results depend on the processing

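The values of the 545 genes were recomputed under each setting, and those of the comparison genes, distal sites and CpG classes were not. The gene count, as reported above, became 622 with a 500 bp window and 482 with 2 kb, 614 with outer ends closed in the thresholded lists, 505 with pooled lists added, 450 with starts of coding transcripts, 498 with the outer end of coding transcripts and 613 with the summit in the window. It fell to 234 with basic transcripts and to 313 in the upper part of the lists by enrichment (at or above the median), with 292 and 328 regions. Leaving out 1 replicate gave 599 to 623 genes, 734 to 765 regions, 63.9 to 65.3% with a principal transcript at an open start, 58.9 to 60.1% CpG-rich open starts, 18.8 to 19.2% CpG-rich outer ends and 20.1 to 20.4% of regions with a GATA word.

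The share of CpG-rich open starts was 67.4% at 500 bp, 57.05% at 2 kb, 70.4% with coding starts, 67.1% with basic transcripts, 73.5% in the upper part by enrichment and 57.7% without regions at other genes' starts. Principal transcripts at an open start made up 61.2% at 2 kb, 80.7% with coding starts, 57.4% with the outer end of coding transcripts, 76.9% with basic transcripts, 75.4% in the upper part by enrichment and 62.8% without other genes' regions. CpG-rich outer ends were 14.2% with coding starts and 11.8% in the upper part by enrichment. The GATA share was 17.3% with coding starts, 14.8% in the upper part by enrichment and 28.5% in a window about 2 times as long, which holds more words by construction. The cause of the other changes was not tested. No paired analysis was possible because both replicates belong to 1 group. Without counts, a weak site cannot be told from an absent one at the outer ends.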

Other observations

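Further genes, chosen after their values were seen, add to the range of internal starts. Hk1, the hexokinase of red cell glycolysis, had 3 regions, with enrichments of 9.85 and 8.27 in replicates 1 and 2 at a start 52.1 kb inside, a different start codon and a GATA word near the summit. Hemgn, a nuclear protein of blood precursors, had 4.74 and 4.97 at a CpG-poor start 9.27 kb inside, also with a GATA word. Tns1, a focal adhesion protein, had 8.82 and 8.26 at a start 122.9 kb inside, with CpG ratios of 0.253 there and 0.869 at the outer end.

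Broadly used genes were in the set as well. Rps2, a ribosomal protein gene, had 8.86 and 9.02 at a start 1.95 kb inside with a CpG ratio of 1.11, against 0.148 at its outer end. Eef1a1, a translation elongation factor, had 7.84 and 7.81 at 8.31 kb, and Gpx4, a peroxidase that protects lipids, had 8.68 and 8.69 at 6.32 kb. In all of Rps2, Eef1a1 and Gpx4 a principal transcript began at some open start and none within 1 kb of the outer end. By chromosome, the share of open genes that were open only inside ran from 3.77% (12 of 318) on chromosome 12 to 8.72% (19 of 218) on chromosome 18, with intervals of 2.17 to 6.48% and 5.65 to 13.2%.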
